A study of Homo sapiens with 6 samples.

Results

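The genes described here are 26 genes of cholesterol synthesis, its control and cholesterol transport, out of 58233 genes listed in the deposited tables of RNA sequencing. They were chosen by symbol from knowledge of the pathway, though with earlier results of these data known. The values of all transcripts with 1 gene identifier were added. Huh7, the line named by the labels, was established from a human hepatocellular carcinoma. For 3 libraries the cells had been transfected with a plasmid that overexpresses TP53TG1, a long noncoding RNA gene known to be induced by p53. For the 3 control libraries they had been transfected with an empty plasmid, so all 6 libraries come from transfected cells of the same labelled line. The question the design poses is which transcripts differ when TP53TG1 is overexpressed. Nothing in the labels tells whether replicates came from separate cultures, so a p-value here covers the spread among libraries that may be technical repeats.

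Cells make cholesterol from acetyl-CoA. The early enzymes build mevalonate and turn it into isoprenoid diphosphates, the middle ones join these into squalene and close the rings to lanosterol, and the late ones trim lanosterol to cholesterol. The liver is a main site of this synthesis, and liver cells also take up and export cholesterol. The genes are under shared control: the transcription factor precursor encoded by SREBF2 sits in the membrane of the endoplasmic reticulum with its escort SCAP, and the INSIG proteins hold the pair there while sterols are plentiful. When membrane sterol falls, SCAP carries the precursor to the Golgi, where it is cut, and the released factor binds sterol regulatory elements beside the genes, commonly together with NF-Y at CCAAT boxes.

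Because of that shared control, the 250 bases before the RefSeq start of each gene (GRCh38.p14) were searched on both strands for the classical sterol regulatory element of 10 bases (the first run of capitals in the SREBF2 window), the CCAAT box, the E-box CACGTG and the GC box GGGCGG. None of these strings contains another. Of the 26 genes, 23 had a promoter window. The 6 windows below belong to the factor gene itself, to 4 genes with CCAAT boxes that are described further on, and to PMVK, which has none. Each is written 5′ to 3′ on the strand of its gene, and these RefSeq starts lay 0 to 272 nt from the GENCODE start of the most abundant transcript. Capitals mark the sterol regulatory element, the CCAAT box, read as ATTGG where it lies on the other strand, and the E-box.
SREBF2, chr22:41832855-41833104, plus strand: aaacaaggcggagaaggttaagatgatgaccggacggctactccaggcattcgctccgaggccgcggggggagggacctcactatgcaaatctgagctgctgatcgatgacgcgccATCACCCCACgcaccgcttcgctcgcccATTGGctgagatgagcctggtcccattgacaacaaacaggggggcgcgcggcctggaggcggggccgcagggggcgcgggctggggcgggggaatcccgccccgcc
HMGCS1, chr5:43313413-43313662, minus strand: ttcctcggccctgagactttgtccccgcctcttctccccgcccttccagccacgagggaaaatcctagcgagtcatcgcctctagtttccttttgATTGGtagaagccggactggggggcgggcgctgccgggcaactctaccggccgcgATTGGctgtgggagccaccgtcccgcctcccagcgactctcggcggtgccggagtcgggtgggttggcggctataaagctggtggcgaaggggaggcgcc
IDI1, chr10:1049120-1049369, minus strand: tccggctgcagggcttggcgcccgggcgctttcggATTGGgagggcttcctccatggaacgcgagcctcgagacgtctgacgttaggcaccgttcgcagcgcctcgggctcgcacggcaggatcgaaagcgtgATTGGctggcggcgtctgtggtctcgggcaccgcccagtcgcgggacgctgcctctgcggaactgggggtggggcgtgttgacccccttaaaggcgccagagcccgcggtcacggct
STARD4, chr5:111512536-111512785, minus strand: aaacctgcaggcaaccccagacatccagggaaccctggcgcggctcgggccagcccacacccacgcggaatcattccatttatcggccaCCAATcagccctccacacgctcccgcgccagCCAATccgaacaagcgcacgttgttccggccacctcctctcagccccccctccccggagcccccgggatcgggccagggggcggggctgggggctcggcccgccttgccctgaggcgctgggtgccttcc
INSIG1, chr7:155297628-155297877, plus strand: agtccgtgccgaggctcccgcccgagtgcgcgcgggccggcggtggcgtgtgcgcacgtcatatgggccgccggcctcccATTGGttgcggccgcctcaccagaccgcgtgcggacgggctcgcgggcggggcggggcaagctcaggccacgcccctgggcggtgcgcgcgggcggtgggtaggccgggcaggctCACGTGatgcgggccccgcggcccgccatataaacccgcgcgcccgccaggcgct
PMVK, chr1:154936720-154936969, minus strand: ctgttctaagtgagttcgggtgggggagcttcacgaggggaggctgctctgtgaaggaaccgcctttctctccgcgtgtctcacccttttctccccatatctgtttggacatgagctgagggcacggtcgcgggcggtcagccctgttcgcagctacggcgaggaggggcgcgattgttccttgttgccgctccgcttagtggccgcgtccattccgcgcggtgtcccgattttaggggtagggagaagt

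The exact sterol regulatory element was found for SREBF2 alone among the 23 genes, and for 12 of all 27305 genes with a window (0.0439%). A CCAAT box was found in the windows of 17 of the 23 genes (73.9%), and of 37.0% of all genes. All genes here include many with little or no expression in these cells. Among tested genes the share was higher, at 41.4% to 43.7% in the sets compared further on. The 23 genes had 30 windows, and a gene was counted once if any of its windows held the box. The printed windows of HMGCS1, IDI1 and STARD4 each held 2 boxes, and another window of IDI1 held 3. The E-box was found for SC5D, INSIG1 and SCAP, against 7.73% of all genes, and the GC box for 21 of the 23 genes, against 46.2% of all genes. A match is a string of letters and not a measured binding site, and a window without one says nothing about the factor.

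TP53TG1 itself had 69.8, 134 and 70.5 FPKM (fragments per kilobase per 1000000 fragments) in TP53TG1 replicates 1, 2 and 3, against 10.6, 5.25 and 6.15 FPKM in control replicates 1, 2 and 3. The groups did not overlap. The log2 difference was 3.46 ± 0.381 (SE), with an adjusted p of 0.0573 in limma. Blocked by replicate number, limma gave an adjusted p of 8.97e-22 in FPKM and of 0.00932 in scaled FPKM. The block leaves few degrees of freedom per gene, so these values rest largely on variance pooled over genes. The pairing behind the block was also read from these data alone, so the smaller value is no measure of the spread between replicates. Library totals ran from 599081 FPKM (TP53TG1 replicate 1) to 890541 FPKM (control replicate 1). Steps between low values gave a rough estimate of 15200000 to 18900000 fragments per library, which depends on the lower cut of 0.05 FPKM set for those values. The libraries numbered 1 stood apart from the rest. The mean length of coding transcripts, weighted by FPKM, was 1212 nt in TP53TG1 replicate 1 and 1290 nt in control replicate 1, against 1594 to 1644 nt in the other 4, and small structured RNAs held 6.61% of the total of TP53TG1 replicate 1, against 0.257% to 1.53% in the other 5. Of 11 hepatocyte markers 8 reached a mean of 1 FPKM, with a summed level of 38.1 to 99.4 FPKM in TP53TG1 libraries and 92.2 to 117 FPKM in control libraries. The defining ones were low: ALB (albumin) at 0.53 to 1.22 FPKM and AFP (alpha-fetoprotein, an antigen of hepatocellular carcinoma) at 0.63 to 3.49 FPKM. All 5 intestinal markers reached that mean, with a sum of 92.1 to 157 FPKM in TP53TG1 libraries and 180 to 347 FPKM in control libraries, and KRT20 had 51.1 to 171 FPKM. Of 4 fibroblast markers 3 reached it, with sums of 7.02 to 19.4 FPKM in TP53TG1 libraries and 4.46 to 7.44 FPKM in control libraries. Of 4 leukocyte markers only CD68 did, with PTPRC at 0 to 0.13 FPKM.

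All 26 cholesterol genes were transcribed in these cells, with gene means over the 6 libraries from 5.70 FPKM for HSD17B7 to 175 FPKM for NPC2, and none passed the test between TP53TG1 and control libraries. The test was limma on log2(FPKM + 1) over the 12853 genes whose mean reached 1 FPKM, with Benjamini-Hochberg adjustment. It called 0 of the 26 genes, and 0 of them had an unadjusted p under 0.05. Over all tested genes it called 1 (0.00778%), and 302 (2.35%) had an unadjusted p that low. Blocked by replicate number, limma called 75 of all tested genes higher (0.584%) and 117 lower (0.91%), 192 in all (1.49%), and 6 higher and 0 lower (0.0469%) once the libraries were also scaled by the median of gene ratios. Each of those fits called 0 of the 26 genes. The lowest adjusted p of a cholesterol gene in limma was 0.748. Fewer cells of a type and less RNA per cell cannot be told apart in such bulk samples. A p above the threshold does not show that the groups were alike, since the levels differed widely within each group.

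The median log2 difference of the 26 genes, TP53TG1 minus control, was -0.20, with a range of -0.62 to 0.10, but that of all tested genes was -0.35, and after scaling the libraries by the median of gene ratios the median of the 26 genes was 0.18. Relative to all genes the median of the 26 thus stood at 0.15, and 19 of the 26 lay above the median of all genes. Single libraries set this value. Without TP53TG1 replicate 3 the relative median was -0.11 and 9 of the 26 genes lay above, without TP53TG1 replicate 2 it was 0.063, without control replicate 1 it was 0.0052 with 13 above, without control replicate 3 it was 0.037, without control replicate 2 it was 0.34, and without TP53TG1 replicate 1 it was 0.44. The summed FPKM of the 26 genes was 639, 1348 and 1422 in TP53TG1 replicates 1, 2 and 3, against 1166, 1550 and 1175 in control replicates 1, 2 and 3. As a share of all FPKM this was 0.107%, 0.217% and 0.227% in the TP53TG1 libraries, against 0.131%, 0.227% and 0.176% in the control libraries. The groups overlapped in both measures, with the lowest share in each group in its library numbered 1.

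**Figure D1:**
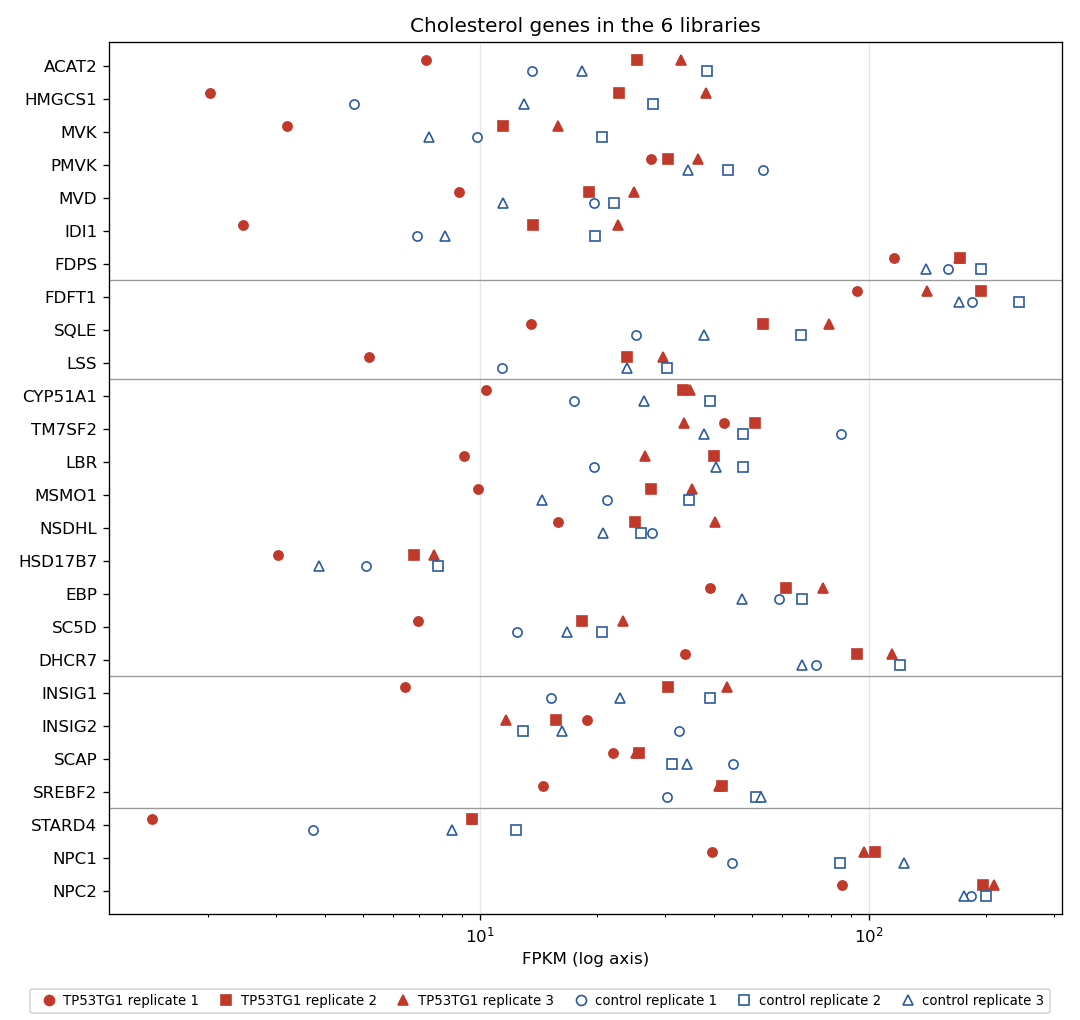
FPKM (log axis) of the 26 cholesterol genes, 1 row per gene and grouped by role from mevalonate enzymes at the top to transport genes at the bottom; filled red symbols are the TP53TG1 libraries, open blue symbols the control libraries, and the shape gives the replicate number. The red circle of TP53TG1 replicate 1 is the lowest point in 24 of the 26 rows, and only in the SCAP row do all red symbols lie left of all blue ones.

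The first enzymes of the mevalonate part were ACAT2, the cytosolic thiolase that joins 2 acetyl-CoA, and HMGCS1, the synthase of the next step. ACAT2 had 7.26, 25.4 and 33.0 FPKM in TP53TG1 replicates 1, 2 and 3, against 13.6, 38.3 and 18.3 FPKM in control replicates 1, 2 and 3. HMGCS1 had 2.03, 22.9 and 38.2 FPKM in the TP53TG1 libraries in the same order, against 4.74, 28.0 and 13.0 FPKM in the control libraries. In each group the library numbered 1 was the lowest, and TP53TG1 replicate 3 stood well above control replicate 3 for both genes. Over the 6 libraries HMGCS1 spanned 18.8-fold, the widest range of the 26 genes.

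MVK, the kinase that phosphorylates mevalonate, had 3.20, 11.5 and 15.9 FPKM in TP53TG1 replicates 1, 2 and 3, against 9.86, 20.6 and 7.40 FPKM in control replicates 1, 2 and 3. PMVK, the kinase that adds the second phosphate, had 27.6, 30.6 and 36.3 FPKM in the TP53TG1 libraries, against 53.4, 43.4 and 34.3 FPKM in the control libraries. PMVK was the mevalonate gene with the smallest unadjusted p: its log2 difference was -0.45 ± 0.289 (SE), with an adjusted p of 0.748 in limma, and its groups overlapped through control replicate 3. After scaling by the median of gene ratios the PMVK difference was -0.054. FDPS, the synthase of farnesyl diphosphate, had the highest mean of the mevalonate genes, with 116, 172 and 170 FPKM in the TP53TG1 libraries, against 160, 194 and 141 FPKM in the control libraries. Its range over the 6 libraries, 1.67-fold, was the narrowest of the 26 genes. MVD, the decarboxylase that makes isopentenyl diphosphate, averaged 17.6 ± 8.14 FPKM in TP53TG1 libraries and 17.8 ± 5.62 FPKM in control libraries (SD, n = 3 each). IDI1, the isomerase of that product, had 2.46, 13.7 and 22.7 FPKM in TP53TG1 replicates 1, 2 and 3, against 6.88, 19.8 and 8.16 FPKM in control replicates 1, 2 and 3, which is the order of libraries seen for HMGCS1.

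FDFT1, squalene synthase and the first enzyme committed to sterols, had 93.2, 194 and 141 FPKM in TP53TG1 replicates 1, 2 and 3, against 185, 243 and 171 FPKM in control replicates 1, 2 and 3. It was lower with TP53TG1 in each like-numbered pair in FPKM, as were 45.4% of all tested genes, but TP53TG1 replicate 2 exceeded control replicates 1 and 3. The log2 difference was -0.53 ± 0.318 (SE), with an adjusted p of 0.748 in limma and an exact two-sided permutation p of 0.3, and it was -0.13 after scaling. SQLE, squalene epoxidase, averaged 48.7 ± 33.1 FPKM in TP53TG1 libraries and 43.3 ± 21.3 FPKM in control libraries (SD, n = 3 each). LSS, the cyclase that closes the rings to lanosterol, had 5.19, 23.9 and 29.6 FPKM in TP53TG1 replicates 1, 2 and 3, against 11.4, 30.3 and 24.0 FPKM in control replicates 1, 2 and 3. The groups of LSS overlapped, and its lowest library in each group was again number 1.

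From lanosterol on, CYP51A1, the cytochrome that removes the first methyl group, averaged 26.1 ± 13.6 FPKM in TP53TG1 libraries and 27.7 ± 10.8 FPKM in control libraries (SD, n = 3 each). The double bond left by that step can be reduced by either of 2 enzymes, TM7SF2 in the endoplasmic reticulum and LBR, the lamin B receptor of the inner nuclear membrane. LBR had 9.11, 40.0 and 26.6 FPKM in TP53TG1 replicates 1, 2 and 3, against 19.7, 47.5 and 40.5 FPKM in control replicates 1, 2 and 3. It had the most negative log2 difference of the 26 genes, -0.62 ± 0.544 (SE), with an adjusted p of 0.748 in limma, but the difference was -0.24 after scaling and -0.043 without TP53TG1 replicate 1. TM7SF2 had 42.5, 51.2 and 33.5 FPKM in the TP53TG1 libraries, against 85.2, 47.5 and 37.7 FPKM in the control libraries. Its highest value was thus in control replicate 1, a library in which LBR was low. The FPKM ratio of LBR to TM7SF2, both divided by length, was 0.214, 0.781 and 0.795 in TP53TG1 replicates 1, 2 and 3, against 0.231, 1.00 and 1.07 in control replicates 1, 2 and 3. The libraries numbered 1 had by far the lowest ratio in each group, and the groups overlapped, with an exact two-sided permutation p of 0.5 on the log2 ratio.

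The remaining enzymes to cholesterol were MSMO1, NSDHL and HSD17B7, which together remove 2 methyl groups as an oxidase, a decarboxylating dehydrogenase and a ketoreductase, and EBP, SC5D and DHCR7, which shift, add and reduce double bonds. Means were 24.2 ± 12.9 FPKM in TP53TG1 libraries and 23.4 ± 10.2 FPKM in control libraries for MSMO1 (SD, n = 3 each). NSDHL averaged 27.1 ± 12.3 FPKM in TP53TG1 libraries and 24.9 ± 3.63 FPKM in control libraries (SD, n = 3 each). HSD17B7, the lowest of the 26 genes, averaged 5.81 ± 2.44 FPKM in TP53TG1 libraries and 5.59 ± 2.02 FPKM in control libraries (SD, n = 3 each). For these 3 enzymes the group means lay closer together than 1 SD of either group. EBP averaged 58.9 ± 18.8 FPKM in TP53TG1 libraries and 57.9 ± 10.1 FPKM in control libraries (SD, n = 3 each). SC5D averaged 16.2 ± 8.40 FPKM in TP53TG1 libraries and 16.6 ± 4.07 FPKM in control libraries (SD, n = 3 each). DHCR7, the reductase of the last step, had the highest mean of the enzymes after lanosterol, with 33.8, 93.1 and 115 FPKM in TP53TG1 replicates 1, 2 and 3, against 73.4, 120 and 67.4 FPKM in control replicates 1, 2 and 3. The highest TP53TG1 library and the highest control library of DHCR7 were close to each other, and TP53TG1 replicate 1 was the lowest of the 6.

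Of the 4 regulators, SCAP, the sterol-sensing escort, was the only one of the 26 genes whose groups did not overlap in FPKM, where 13.3% of all tested genes were lower in every TP53TG1 library. SCAP (ENSG00000114650, chr3:47413694-47477126 on the minus strand of GRCh38, from GENCODE release 29) had 22.1, 25.6 and 25.3 FPKM in TP53TG1 replicates 1, 2 and 3, against 44.8, 31.3 and 34.1 FPKM in control replicates 1, 2 and 3. Its log2 difference was -0.56 ± 0.280 (SE), with an adjusted p of 0.748 in limma and an exact two-sided permutation p of 0.1, the smallest that 3 against 3 libraries can give. After scaling by the median of gene ratios the SCAP difference was -0.17 and its groups overlapped, and 0 of the 26 genes were then without overlap, against 1.89% of all tested genes higher and 2.18% lower in every TP53TG1 library. No gene of the 26 was higher in every TP53TG1 library in FPKM, where 0.428% of all tested genes were. SREBF2, the gene of the factor, had 14.6, 42.0 and 41.2 FPKM in TP53TG1 replicates 1, 2 and 3, against 30.4, 51.4 and 52.8 FPKM in control replicates 1, 2 and 3. It was lower with TP53TG1 in each like-numbered pair in FPKM, like 45.4% of all tested genes. The SREBF2 difference was -0.55 ± 0.445 (SE) on the log2 scale with an adjusted p of 0.748 in limma, but -0.16 after scaling and -0.065 without TP53TG1 replicate 1.

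INSIG1 and INSIG2 encode the retention proteins, and INSIG1 is itself a known target of the factor while INSIG2 is not switched by sterols in the same way. INSIG1 had 6.43, 30.5 and 43.2 FPKM in TP53TG1 replicates 1, 2 and 3, against 15.2, 39.1 and 22.9 FPKM in control replicates 1, 2 and 3. INSIG2 had 18.9, 15.7 and 11.7 FPKM in the TP53TG1 libraries, against 32.6, 13.0 and 16.2 FPKM in the control libraries. The libraries ordered the genes in opposite ways: INSIG1 was lowest in both libraries numbered 1, where INSIG2 was highest. The FPKM ratio of INSIG1 to INSIG2 was 0.340, 1.94 and 3.69 in TP53TG1 replicates 1, 2 and 3, against 0.467, 3.02 and 1.41 in control replicates 1, 2 and 3. The ratio was below 1 in both libraries numbered 1 and above 1 in the other 4, and the groups overlapped, with an exact two-sided permutation p of 0.9 on the log2 ratio.

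**Figure D2:**
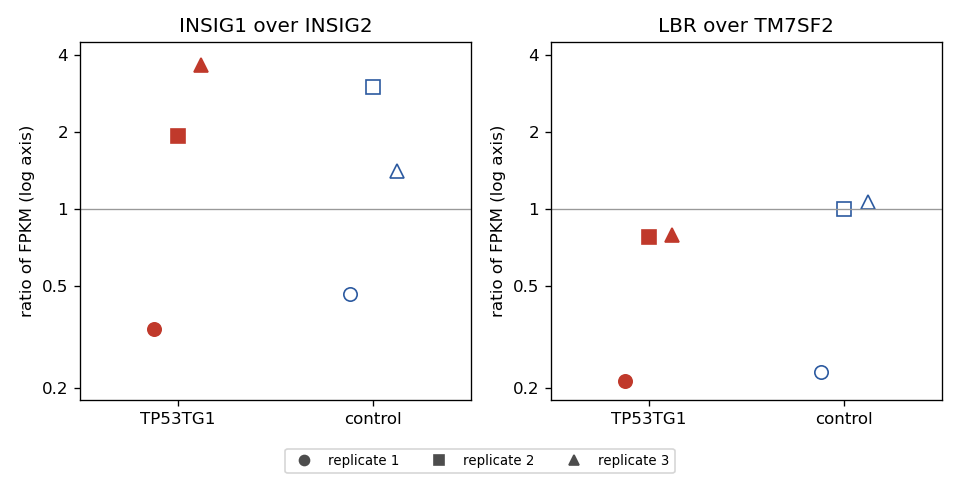
Ratio of FPKM (log axis) of INSIG1 to INSIG2 on the left and of LBR to TM7SF2 on the right, with TP53TG1 libraries as filled red and control libraries as open blue symbols, 1 symbol shape per replicate number and a grey line at 1. In each panel the circles of the libraries numbered 1 lie far below the others in both groups: at 0.340 and 0.467 on the left and at 0.214 and 0.231 on the right.

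Among the transport genes, STARD4, a soluble carrier of sterol between membranes, had 1.44, 9.55 and 9.58 FPKM in TP53TG1 replicates 1, 2 and 3, against 3.73, 12.4 and 8.48 FPKM in control replicates 1, 2 and 3. The lowest library of each group of STARD4 was number 1, and the groups overlapped. NPC2, the soluble lysosomal protein that hands cholesterol to NPC1, had the highest mean of the 26 genes, with 85.6, 197 and 211 FPKM in the TP53TG1 libraries, against 183, 201 and 176 FPKM in the control libraries. Leaving aside TP53TG1 replicate 1, the NPC2 values of the other 5 libraries lay within 176 to 211 FPKM. NPC1, the lysosomal membrane protein of the same export route, averaged 80.3 ± 35.5 FPKM in TP53TG1 libraries and 84.0 ± 39.3 FPKM in control libraries (SD, n = 3 each). It was the only one of the 26 genes at least 1.5 times higher with TP53TG1 in the pair numbered 1 after scaling, at a ratio of 1.61, where 11.2% of all tested genes were.

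The cholesterol genes varied widely between libraries of the same group. Their median SD within groups was 0.70 on the log2 scale, against 0.45 for all tested genes. In FPKM, 24 of the 26 were lowest in TP53TG1 replicate 1, as were 68.3% of all tested genes, and the exceptions, TM7SF2 and INSIG2, were lowest in TP53TG1 replicate 3. The highest library was TP53TG1 replicate 3 for 10 genes, control replicate 1 for 4 (PMVK, TM7SF2, INSIG2 and SCAP), control replicate 2 for 10 and control replicate 3 for 2 (SREBF2 and NPC1). TP53TG1 replicate 3 or control replicate 2 was thus the highest for 20 of the 26 genes, against 30.9% of all tested genes. Those libraries were picked because they were most often the highest for these genes. A share above that of all genes was therefore built into the choice. After scaling by the median of gene ratios, those libraries were the highest for 19 of the 26 genes, against 31.8% of all tested genes, and TP53TG1 replicate 1 was the lowest for 12 of 26, against 30.9%. Relative to each gene's mean, the median of the scaled log2 levels of the 26 genes was -0.39, 0.12 and 0.54 in TP53TG1 replicates 1, 2 and 3, against -0.20, 0.31 and -0.28 in control replicates 1, 2 and 3. For all tested genes these medians lay between -0.023 and 0.021.

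**Figure D3:**
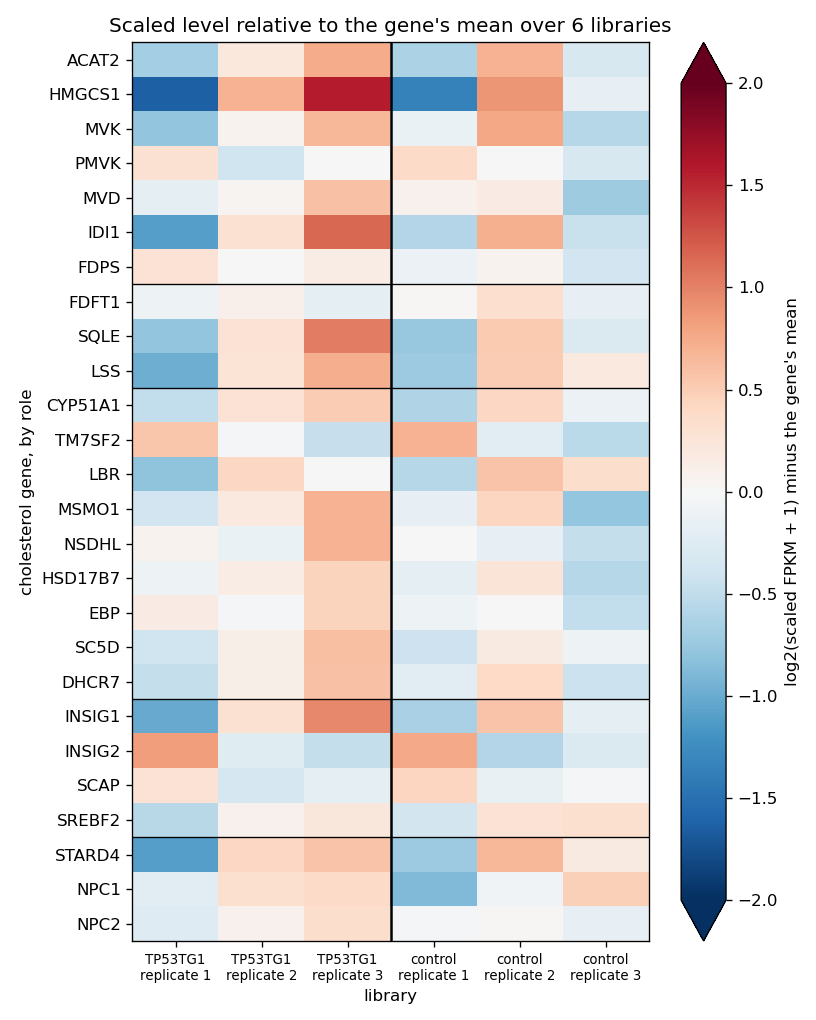
Heat map of log2(scaled FPKM + 1) minus the mean of the gene over the 6 libraries, with 1 row per cholesterol gene, grouped by role, and 1 column per library, TP53TG1 left of the black line and control right of it; red is above and blue below the mean of the gene. TP53TG1 replicate 1 and control replicate 1 are blue for most genes, and both are clearly red for PMVK, TM7SF2, INSIG2 and SCAP. A few other cells of these columns are red, such as FDPS in TP53TG1 replicate 1. TP53TG1 replicate 3 and control replicate 2 are red for most genes.

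The low level in the libraries numbered 1 went with transcript length. Of the 26 genes, 10 had an FPKM-weighted transcript length under 2000 nt, and their median scaled log2 level in the libraries numbered 1 minus that in the other libraries was 0.00. For the 16 genes of 2000 nt or more it was -0.91. Over all tested genes the same medians were 0.40 for 5835 shorter genes and -0.33 for 7003 longer ones, so that the medians of the cholesterol genes lay below those of all genes on both sides of that length. HMGCS1, with 3181 nt, had the lowest value of the 26, -2.23, and IDI1 and MVK, with 2159 and 1942 nt, had -1.27 and -0.69. SCAP, with 3361 nt, had 0.54 and INSIG2, with 2017 nt, had 1.19, and these were the only 2 of the 16 longer genes above 0. The part of transcript length and RNA quality in these values was not tested.

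**Figure D4:**
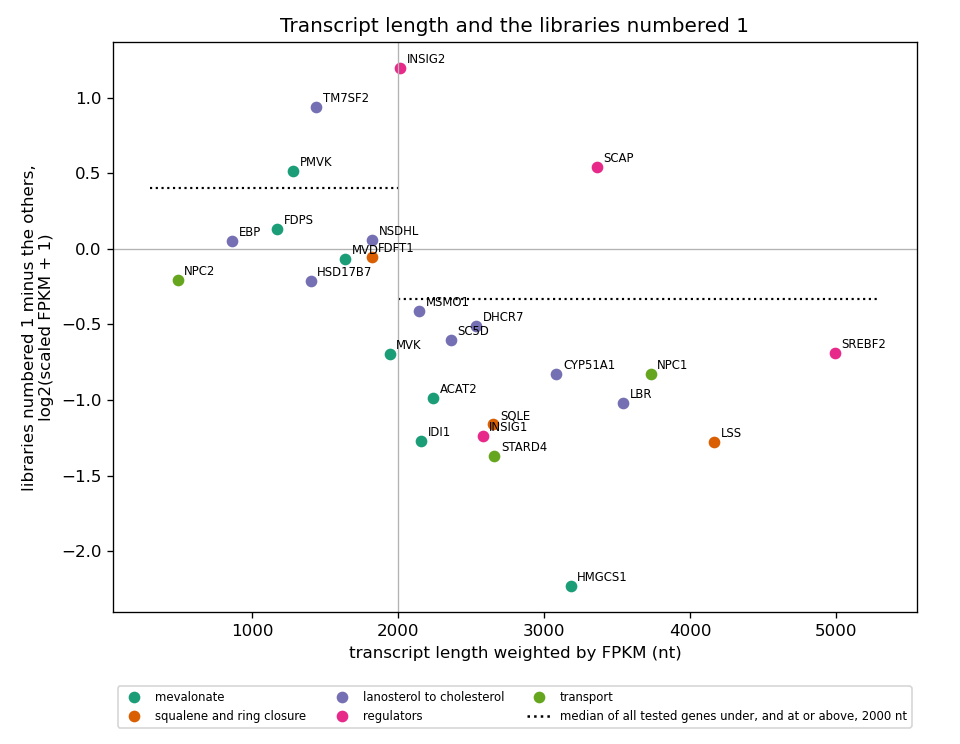
FPKM-weighted transcript length (nt) of each cholesterol gene against its mean log2(scaled FPKM + 1) in the libraries numbered 1 (1 of each group) minus that in the other 4; colours give the role, and the dotted lines are the medians of all tested genes under 2000 nt (0.40) and at or above it (-0.33). Of the 16 genes of 2000 nt or more, all but SCAP and INSIG2 lie below 0.

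Libraries of the same number were compared because their deviations from the group means went together over genes. The correlations were 0.710, 0.562 and 0.289 for numbers 1, 2 and 3. For number 3, unlike libraries went together more closely. TP53TG1 replicate 3 correlated at 0.302 with control replicate 2, and control replicate 3 at 0.400 with TP53TG1 replicate 2. This look at single pairs was chosen after the values had been seen, and 1 library against 1 has no replicate check. In the pair numbered 3, 20 of the 26 genes were higher with TP53TG1 after scaling by the median of gene ratios, where 51.5% of all tested genes were, and 14 were at least 1.5 times higher, where 13.6% were. In the pair numbered 1, 8 of 26 were higher, where 47.5% of all tested genes were, and in the pair numbered 2 it was 5 of 26, where 44.8% were, with 0 of 26 at least 1.5 times higher there, against 7.48% of all tested genes. The median scaled ratio of the 26 genes, TP53TG1 over control, was 0.902 in pair 1, 0.872 in pair 2 and 1.61 in pair 3. The direction in pair 3 was therefore not that of pairs 1 and 2. In unscaled FPKM 19 of the 26 genes were higher with TP53TG1 in pair 3, where 30.8% of all tested genes were. NSDHL was the only one of the 26 higher with TP53TG1 in all 3 scaled pairs, where 12.3% of all tested genes were. In unscaled FPKM, FDFT1, LBR, SCAP and SREBF2 were lower with TP53TG1 in all 3 pairs, where 45.4% of all tested genes were.

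By role, the genes at least 1.5 times higher with TP53TG1 in the scaled pair numbered 3 were 5 of 7 mevalonate genes, 1 of 3 genes from squalene to lanosterol, 7 of 9 genes from lanosterol to cholesterol, 1 of 4 regulators and 0 of 3 transport genes. The highest scaled ratios in that pair were 3.51 for HMGCS1, 3.32 for IDI1 and 2.90 for MSMO1. The regulator among them was INSIG1 at 2.25, and SQLE stood at 2.51. The other regulators had ratios of 0.932 for SREBF2, 0.885 for SCAP and 0.862 for INSIG2. The lowest ratio of the 26 genes was 0.785 for LBR, against 1.06 for TM7SF2. ACAT2 and SQLE, both in the group at 1.5 or more, had no promoter window. Of the 12 genes of that group with a window, 11 held a CCAAT box, the exception being CYP51A1. Of the other cholesterol genes 6 of 11 did. Over all tested genes with a window the shares were 43.7% of those at 1.5 or more and 41.4% of the rest. The split rests on 1 library against 1, and genes under shared control are not replicates. Whether CCAAT boxes bear on these ratios was not tested.

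**Figure D5:**
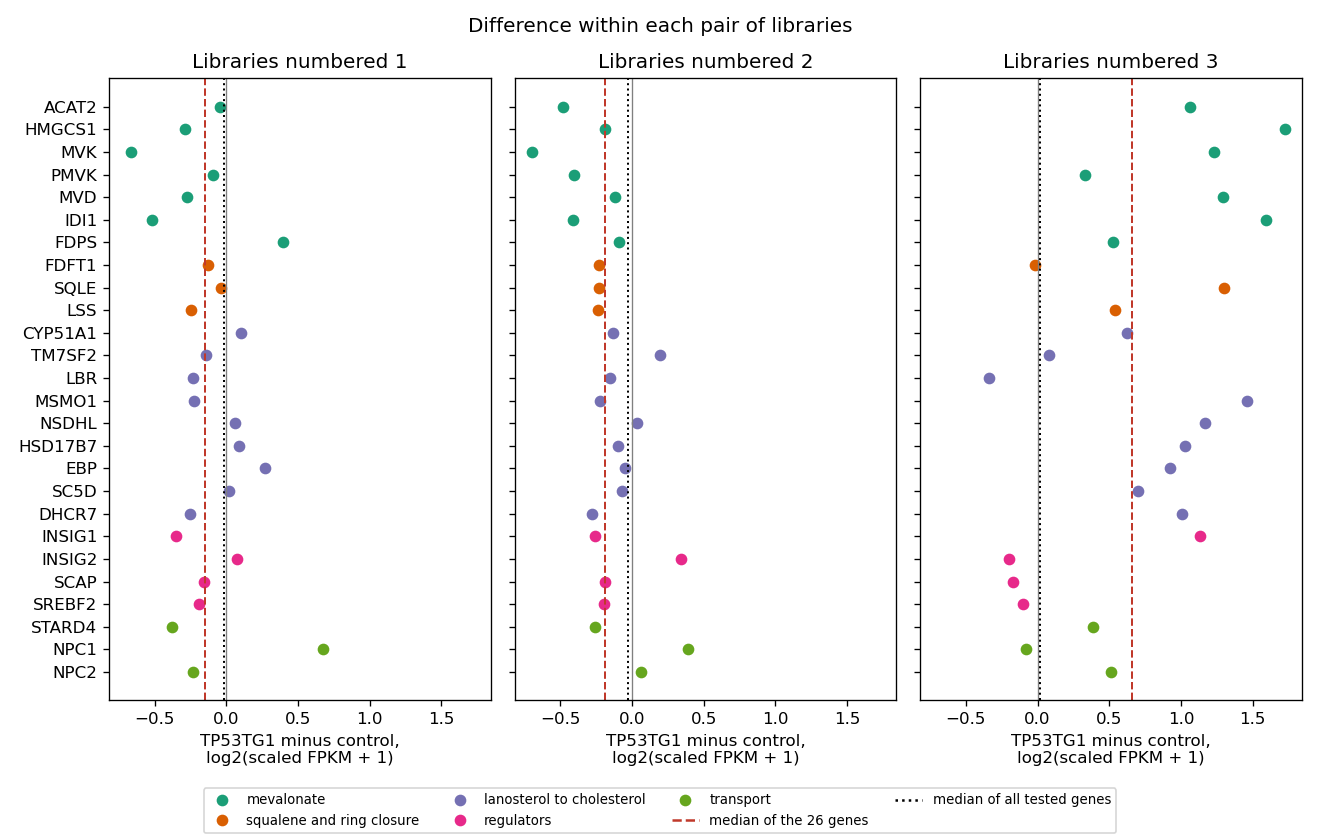
Log2 difference, TP53TG1 minus control, of each cholesterol gene between libraries of the same number after scaling, 1 panel per number, with colours for the role, a dashed red line at the median of the 26 genes and a dotted black line at the median of all tested genes. In the panel numbered 3 the dashed line lies at 0.66 and the dotted one at 0.02, and most mevalonate and late enzymes lie right of both; in the panels numbered 1 and 2 the dashed line lies at -0.15 and -0.19.

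Further genes of sterol sensing, isoprenoid branches, precursor supply, esterification, efflux and transport were counted from a list of 40, of which 35 were tested. Of these, limma called 0, against 0.00778% of all tested genes, and their median log2 difference was -0.39, against -0.35 for all tested genes. An unadjusted p under 0.05 in limma was found for 1 of the 35, a share close to the 2.35% of all tested genes. That gene was GRAMD1B, which moves cholesterol from the plasma membrane to the endoplasmic reticulum, with 4.27, 5.91 and 6.0 FPKM in TP53TG1 replicates 1, 2 and 3, against 12.4, 10.2 and 10.4 FPKM in control replicates 1, 2 and 3. Every TP53TG1 library of GRAMD1B lay below every control library, as for 13.3% of all tested genes, and also after scaling, as for 2.18%. Its log2 difference was -0.91 ± 0.324 (SE) with an adjusted p of 0.748 in limma, and -0.56 after scaling. SREBF1, the gene of the related factor that acts more on fatty acid genes, averaged 65.6 ± 31.3 FPKM in TP53TG1 libraries and 101 ± 15.5 FPKM in control libraries (SD, n = 3 each). MBTPS1, the Golgi protease that makes the first cut in the precursor, averaged 25.0 ± 9.35 FPKM in TP53TG1 libraries and 37.2 ± 6.43 FPKM in control libraries (SD, n = 3 each). For SREBF1 and MBTPS1 the groups overlapped. CYP27A1, a sterol hydroxylase of the bile acid route, averaged 12.7 ± 1.98 FPKM in TP53TG1 libraries and 19.9 ± 5.92 FPKM in control libraries (SD, n = 3 each). NR1H3, an oxysterol receptor, averaged 9.25 ± 2.89 FPKM in TP53TG1 libraries and 15.2 ± 6.99 FPKM in control libraries (SD, n = 3 each). For CYP27A1 and NR1H3 the groups overlapped as well, and each of the further genes named here had an adjusted p of 0.748 in limma. In the scaled pair numbered 3, 5 of the 35 were at least 1.5 times higher with TP53TG1, a share close to the 13.6% of all tested genes.

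For 13 of the 26 genes a second transcript held at least 20% of the gene's FPKM in either group. SCAP divided between a transcript of 2950 nt (SCAP-215), with 79.7%, 33.2% and 29.8% of its FPKM in TP53TG1 replicates 1, 2 and 3, against 58.4%, 21.3% and 22.3% in control replicates 1, 2 and 3, and one of 4394 nt (SCAP-201). The longer SCAP-201 held 5.57%, 43.1% and 42.2% in the TP53TG1 libraries, against 8.15%, 44.5% and 37.5% in the control libraries. The shorter transcript thus led in both libraries numbered 1 and the longer one in the other 4. SQLE showed the same division: SQLE-201, of 2961 nt, held 21.3%, 77.1% and 72.7% in TP53TG1 replicates 1, 2 and 3, against 45.9%, 79.4% and 92.5% in control replicates 1, 2 and 3. NSDHL-201, of 1929 nt, held 30.8%, 74.4% and 72.4% of NSDHL in the TP53TG1 libraries, against 51.6%, 75.8% and 72.0% in the control libraries. For these 3 transcript divisions the groups overlapped. Of 51 transcripts that held at least 10% of a cholesterol gene in either group, 2 had shares without overlap, where 5.72% of such transcripts of all tested genes did. A TM7SF2 transcript of 544 nt held 11.9%, 13.4% and 7.77% in TP53TG1 replicates 1, 2 and 3, against 5.60%, 3.71% and 5.22% in control replicates 1, 2 and 3. An INSIG2 transcript of 3185 nt held 8.87% to 11.6% in the TP53TG1 libraries, against 7.14% to 8.80% in the control libraries. Both shares were higher in every TP53TG1 library, with an exact two-sided permutation p of 0.1 each. EBP lay mostly in a transcript annotated as a processed transcript, EBP-201, at 53.2 ± 1.42% in TP53TG1 libraries and 52.5 ± 3.82% in control libraries (SD, n = 3 each). Shares of transcripts that overlap are estimates of the quantifier.

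Whether the libraries keep the strand is not given in the sources used here, and reads of overlapping genes cannot then be told apart. ACAT2 overlaps TCP1, a chaperonin gene on the other strand with a mean of 122 FPKM, over 558 nt, MVK overlaps MMAB over 620 nt and NPC1 overlaps C18orf8 over 25624 nt. FDPS, TM7SF2, DHCR7, SCAP, SREBF2 and NPC2 overlap other genes as well, and the levels of these 9 genes are uncertain to that extent. The 13 named pseudogenes of the 26 genes had at most 0.22 FPKM in any library.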

How the data were processed

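RNA of 6 libraries was sequenced, 3 with a TP53TG1 plasmid and 3 with an empty plasmid. Total RNA was extracted with TRIzol, treated with DNase I and made into libraries with a TruSeq RNA kit, per the labels' protocols. The submitters' processing notes list HISAT2, StringTie and GRCh38.p10, without versions, parameters, strand or annotation release. The values the authors deposited, 1 per transcript and library, were taken as FPKM: no header gives a unit, and the values are not whole and sum to a different total in each library. FPKM are divided by length and depth but not scaled between libraries, so RNAs that take a large share of a library lower all other values. Depth is not recorded. It was estimated from steps between values above 0.05 FPKM of genes with 1 transcript of 300 to 1500 nt, and no interval was derived from it. Values below that cut were left out, so the estimate depends on the cut and could miss a greater depth.

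Transcripts were summed per gene identifier. Blank symbols were filled by transcript identifier from the other libraries. The test covered genes whose mean reached 1 FPKM, on log2(FPKM + 1), which understates changes of low genes, with limma 3.58.1 (mean-variance trend) in R 4.3.3, Benjamini-Hochberg adjustment and a threshold of 0.05; the scripts were tested on simulated data. Single values were compared with exact permutation tests of 3 against 3 libraries (smallest p 0.1). Scaled FPKM were divided by each library's median of gene ratios. Coordinates, lengths and overlaps came from GENCODE release 29, and promoters from RefSeq (GRCh38.p14). Tables were made with Python 3.11.15, pandas 2.3.3 and matplotlib 3.10.9.

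The labels number the replicates of both groups 1 to 3 without saying what a number marks. Across genes, like-numbered libraries had deviations from their group means that correlated at 0.710, 0.562 and 0.289, each over 0.1, the limit used for pairing, but unlike numbers reached 0.400 and 0.302; the pairing comes from these data alone. The 26 genes and the lists were chosen with earlier results of these data known. Values in every library were to be given for the 4 regulators, the 12 genes with the smallest p and the highest gene of each role; those of ACAT2, HMGCS1 and IDI1 were added after the values were seen. Of the further sterol genes the 6 with the smallest p were to be named, and the result of 1 of them is not reported here. Alternatives changed the scaling, the pseudocount, the filter on low values, the libraries and the block.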

Additional observations from a re-analysis of the deposited data

How the results depend on the processing

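None of the 17 other settings called a cholesterol gene, with 0.476 as the lowest adjusted p in limma, from the fit with the replicate block; unadjusted, 1 gene passed without a filter. The count of all genes called was 2 after median-of-ratios scaling, 0 without a filter, 2 at a mean of at least 5 FPKM and 0 to 1 without 1 library. It was 192 with the replicate block, 6 with the block and scaling, 23 with the block and without the libraries numbered 1, and 10 after scaling without them, a setting chosen after seeing the data. The block changed no call other than those of TP53TG1 and that count. The log2 difference of TP53TG1 passed the threshold at 3.83 after scaling, 3.46 at a mean of at least 5 FPKM, 3.46 with the block, 3.83 with the block and scaling, 3.88 with the block and without the libraries numbered 1 and 4.01 after scaling without them.

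Relative to the median of all genes, the log2 differences of 9 genes changed sign without a filter: ACAT2 -0.063, LSS -0.22, CYP51A1 -0.052, TM7SF2 -0.22, SC5D -0.025, DHCR7 -0.10, INSIG1 -0.065, INSIG2 -0.18 and NPC2 -0.16; many genes at 0 then enter the median. Without both libraries numbered 1, also with the block or scaling, MVK stood at 0.27 and STARD4 at 0.065 (0.066 with scaling). Leaving out 1 library turned the sign of 19 genes. Their ranges were -0.16 to 0.55 for ACAT2, -0.21 to 1.33 for HMGCS1, -0.36 to 0.34 for MVK, -0.27 to 0.079 for PMVK, -0.011 to 0.45 for MVD, -0.25 to 0.82 for IDI1, -0.11 to 0.81 for SQLE, -0.36 to 0.49 for LSS, -0.091 to 0.48 for CYP51A1, -0.26 to 0.36 for TM7SF2, -0.62 to 0.076 for LBR, -0.047 to 0.45 for SC5D, -0.14 to 0.41 for DHCR7, -0.27 to 0.70 for INSIG1, -0.34 to 0.43 for INSIG2, -0.43 to 0.054 for SREBF2, -0.42 to 0.44 for STARD4, -0.086 to 0.60 for NPC1 and -0.085 to 0.25 for NPC2. The cause was not tested. Depth is known only as an estimate, so no floor is given for low values.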
